A study of Mus musculus domesticus with 18 samples.

Results

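The genes described here are 34 genes that mark T lymphocytes and natural killer (NK) cells, the lymphocytes that patrol the liver, and that were followed in whole liver of wild mice. They were given as a list of symbols, and each was read from its single-gene probe set, the brightest one where a gene had several. Of the 34 genes, 32 had such a probe set and were measured, out of 18193 named genes on the array; Lck and Klrb1c had none. Livers were taken from 18 males of the wild house mouse, Mus musculus domesticus, of which 9 were trapped at La Paz, Bolivia, at 3600 m and 9 at Lima, Peru, at 100 m. Each altitude group held 3 trapping locations, called A, B and C within that altitude, with 3 mice each, and every mouse gave 1 Affymetrix mouse array. No treatment or genetic change is recorded for any group, ages are not given, and the labels' strain field reads C57BL/6J although the mice are described as wild. Altitude coincides with city and mouse population, so these cannot be told apart. A mouse is named by altitude, location and number, as in high A1.

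T cells recognise peptides through a receptor whose signal is carried by the CD3 chains and CD247 and passed on by the kinases LCK and ZAP70, with CD4 or CD8 as co-receptor. NK cells use inhibitory and activating receptors of the KLR family and NCR1 in place of an antigen receptor. Both kinds of killer cell store perforin and granzymes in granules, and both use the transcription factors TBX21 (T-bet) and EOMES. Liver sinusoids hold many resident T and NK cells, among which CXCR6 is a known homing receptor. In whole liver these transcripts are diluted by those of hepatocytes, and a change in the number of lymphocytes cannot be told apart from a change in RNA per cell.

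Most of the members lay low on the array. Values are log2 signals made with RMA, a summary that compresses weak probe sets towards a floor. As a floor, the 95th percentile of the mean level of 70 olfactory and vomeronasal receptor genes, which liver does not use, was taken; it lay at 5.62. Of the 32 measured members, 11 had a mean over the 18 arrays above it (Cd3d, Cd3e, Cd4, Cd8a, Zap70, Nkg7, Gzma, Gzmb, Ccl5, Il2rb and Cxcr3), against 61.7% of all genes. The other 21 were near the floor, and 9 of these rose above it in at least 1 mouse. Differences of genes near the floor may be compressed. The tissue label held: Alb, Apoa1 and Ttr, plasma protein genes of hepatocytes, averaged 14.82, 14.59 and 14.41. Array medians ran from 5.24 to 5.36, and the number of arrays limits the precision. The excess of the 3 prime over the 5 prime probe set of Actb, a control for RNA integrity, averaged 1.19 in high A, 1.70 in high B and 1.30 in high C, and from 1.18 to 1.26 in the low locations.

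The 3 mice from location A at high altitude had the highest mean levels over the 32 measured members, though not for every member. Compared with locations B and C of the same altitude, 9 members rose in A: the chemokine gene Ccl5, the receptor genes Cxcr6, Gpr18 and Cxcr3, the phosphatase gene Ptpn22, the granule genes Nkg7 and Gzmk, and the T cell surface genes Cd3d and Cd5. The rises ran from 1.44-fold for Cd5 to 3.82-fold for Ccl5, each with an adjusted p under 0.05 (limma's moderated test, Benjamini-Hochberg over 18193 genes, n = 3 mice per location). Among all genes 0.159% were called higher in this comparison, or 29 genes, and 9 of those 29 were members. Ranked by p-value among the 18193 genes, Cxcr6 was at 1, Gpr18 at 2, Ptpn22 at 3 and Cxcr3 at 4. The members were chosen with earlier results of these data known, so their count is no independent evidence for the list. The median difference over the 32 members was 0.42, with 27 positive, against a median of -0.02 and 44.8% positive over all genes. When the 3 high locations were compared by limma's F test, 7 of 32 members were called (Ptpn22, Nkg7, Gzmk, Ccl5, Cxcr3, Cxcr6 and Gpr18), against 0.302% of all genes. Cxcr6, Gpr18, Ptpn22, Ccl5 and Cxcr3 were called in A in each of 23 fits that left out 1 mouse or 1 other location. The calls of the other 4 lay nearer the threshold: Cd3d was lost in 19 of the 23 fits, Cd5 in 16, and Nkg7 and Gzmk in 7 each, also in some that left out only low altitude mice. Their log2 differences in those 23 fits ran from 0.87 to 1.16, 0.45 to 0.62, 0.96 to 1.23 and 0.85 to 1.30. Without high A1, high B3 or high C3, or without all of high C or of low A, only Cxcr6, Gpr18, Ptpn22, Ccl5 and Cxcr3 were called among the 9.

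**Figure D1:**
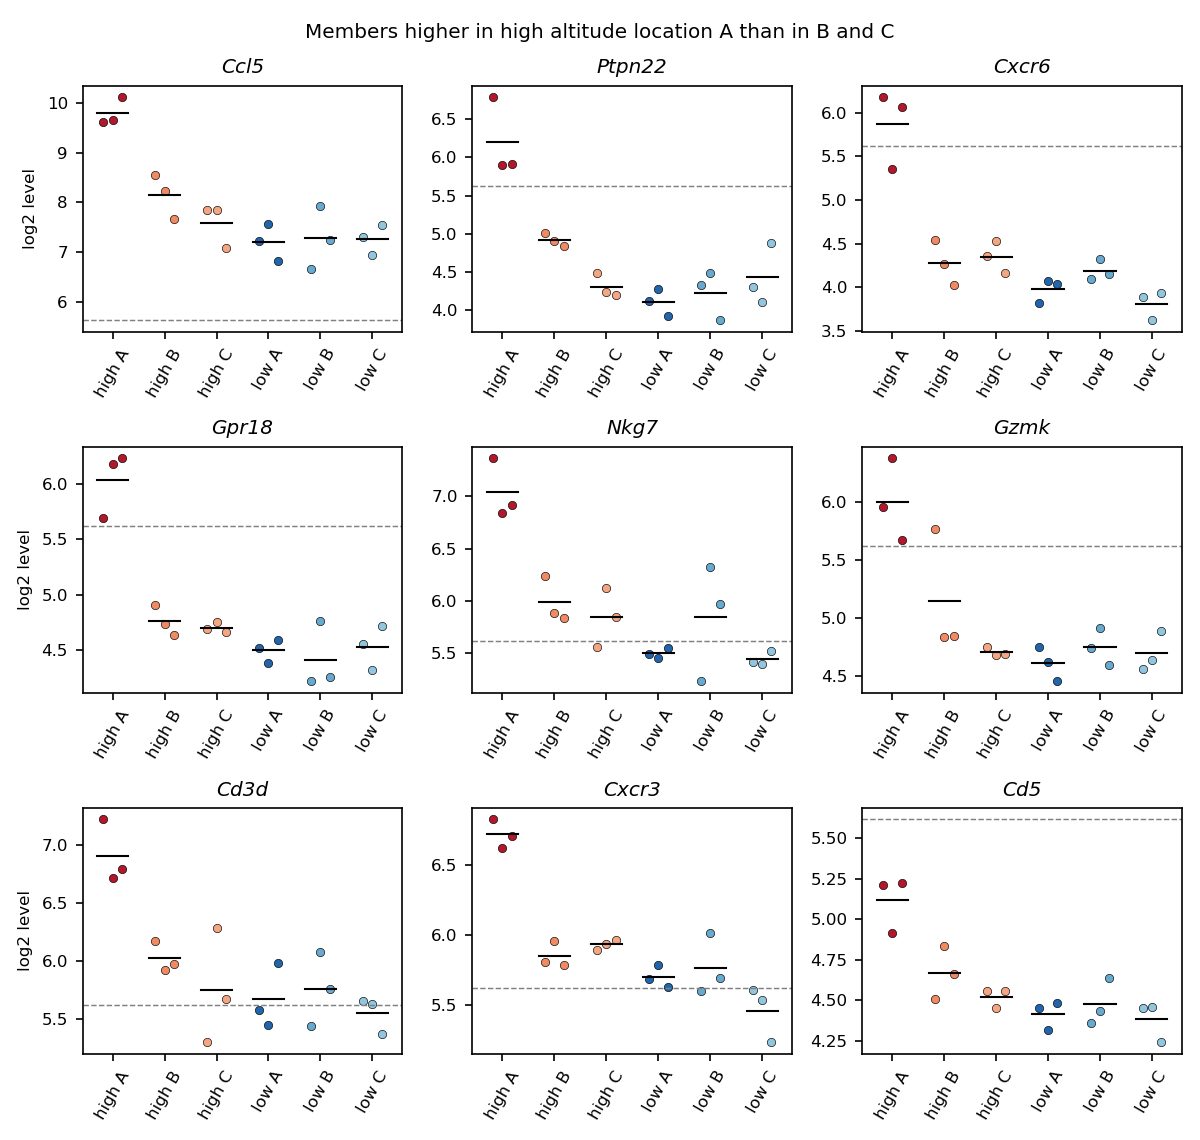
Log2 level of the 9 members that were higher in high altitude location A than in B and C, by location (x axis; 3 mice each as points, black line the location mean); the dashed grey line is the floor at 5.62. The 3 mice of high A stand above the 15 other mice in every panel but that of Gzmk, where high B1 at 5.77 lies above high A4 at 5.67.

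For 12 members all 3 mice of high A lay above each of the 15 other mice, a pattern shown by 0.709% of all genes. They were Cd3d, Cd3e, Cd3g, Cd2, Cd5, Ptpn22, Nkg7, Fasl, Ccl5, Cxcr3, Cxcr6 and Gpr18. With Gzmb and Klrd1 added, 14 members had all 3 mice of A above the 6 mice of B and C, against 2.22% of all genes. High A had the highest of the 6 location means for 23 of 32 members, against 2722 of the 18193 genes. It had the lowest of the 6 for Cd247, Zap70 and Xcl1. The top mouse of the 18 was high A1 for 12 members, high A4 for 5 and high A2 for 4.

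Of the 3 chemokine and cytokine genes, Ccl5 alone passed, with the largest difference of all members. Ccl5 encodes a chemokine that activated T and NK cells make and that draws in further leukocytes. Its log2 level was 9.62, 9.65 and 10.12 in the 3 mice of high A, 8.54, 8.23 and 7.66 in high B, and 7.84, 7.84 and 7.07 in high C. In the 9 low altitude mice it ran from 6.66 through a median of 7.23 to 7.93. High A thus stood apart from every other mouse, and B and C of high altitude overlapped the low range. Against B and C the log2 difference was 1.93 ± 0.27 (SE, adjusted p = 0.00429). Ifng, the gene of interferon gamma, and Xcl1, a chemokine gene of killer cells, differed by 0.21 ± 0.13 and -0.07 ± 0.10 (SE), and their mean levels of 3.96 and 3.88 were near the floor.

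Of the 4 genes of cytokine, chemokine and other receptors, 3 passed. Cxcr6, the receptor of the chemokine CXCL16 on resident lymphocytes, read 6.18, 5.35 and 6.07 in high A, 4.55, 4.26 and 4.03 in high B and 4.36, 4.53 and 4.16 in high C. The low mice ran from 3.62 to 4.33 with a median of 4.04, so that only high A left the range near the floor, in 2 of its 3 mice. The difference of high A was 1.55 ± 0.16 (SE), 2.93-fold, with an adjusted p of 0.000428. Gpr18, a G protein-coupled receptor gene of lymphocytes, read 5.69, 6.17 and 6.23 in high A and between 4.64 and 4.91 in the other 6 high mice. Its difference was 1.30 ± 0.14 (SE), 2.46-fold, also with an adjusted p of 0.000428. Cxcr3, which guides effector T cells towards interferon-induced chemokines, read 6.82, 6.62 and 6.71 in high A and stayed between 5.78 and 5.96 in high B and C. That is a 1.78-fold difference (0.83 ± 0.11, SE, adjusted p = 0.00259), with the lowest mouse of A above all others. Il2rb, the shared receptor chain for interleukins 2 and 15, did not move with them, at -0.05 ± 0.12 (SE, adjusted p = 0.972).

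Among the killer cell granule genes the differences were uneven. Nkg7, a granule membrane protein gene of cytotoxic cells, read 7.36, 6.84 and 6.92 in high A, 6.24, 5.89 and 5.83 in high B and 5.56, 6.12 and 5.85 in high C. In the low mice it ran from 5.23 through 5.50 to 6.33, below every mouse of high A. The difference was 2.18-fold (1.12 ± 0.19, SE, adjusted p = 0.0231). Gzmk, a granzyme gene of effector memory T cells, read 5.96, 6.38 and 5.67 in high A, and among the other mice only high B1, at 5.77, reached that range. Its difference was 2.10-fold (1.07 ± 0.18, SE, adjusted p = 0.0231). Gzmb, the main apoptosis-inducing granzyme gene, differed more, by 1.22 ± 0.38 (SE), but its mice were spread widely and it did not pass (adjusted p = 0.303). Gzma, its tryptase relative, and Prf1, the perforin gene, differed by 0.54 ± 0.34 and 0.14 ± 0.12 (SE, adjusted p = 0.783 and 0.873). Fasl, the death ligand gene, differed by 0.51 ± 0.11 (SE, adjusted p = 0.0918); its 3 high A mice, at 5.03, 4.78 and 4.63, lay above the other 15, all near the floor. Fasl was called in A with the mean of its probe sets (0.38, adjusted p = 0.027) and without high C1 (0.59, adjusted p = 0.0313).

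Of the 7 T cell receptor and co-receptor genes, Cd3d alone passed the test. Cd3d, a signalling chain of the receptor, read 7.23, 6.72 and 6.80 in high A, 6.17, 5.92 and 5.98 in high B and 5.30, 6.29 and 5.67 in high C, against 5.37 to 6.08 in the low mice. High A did not overlap the rest, and the difference was 2.03-fold (1.02 ± 0.19, SE, adjusted p = 0.0452). Cd3g, the gamma chain, was 1.19 ± 0.28 (SE) higher but did not pass (adjusted p = 0.114); high A1 read 6.85 and the other 2 mice of A 5.27 and 5.30. Cd3e, the epsilon chain, differed by 0.26 ± 0.11 (SE, adjusted p = 0.562), although all 3 mice of A, at 7.49, 7.51 and 7.33, lay above the other 15. Cd3g, Cd3d and Cd3e are neighbours on mouse chromosome 9 in the RefSeq gene table (assembly GRCm38.p6). The log2 differences of Cd247, Cd4, Cd8b1 and Cd8a were -0.09, -0.23, 0.13 and 0.08 (adjusted p = 0.653 to 0.954). For Cd8a the probe sets disagreed. Of its 4 others, 3 read higher in high A by 0.45, 0.76 and 0.83, with all 3 mice above the other 15 in each but none past the test over all probe sets, and the last differed by -0.0032. With a mean over all probe sets of a gene, Cd8a was called in high A (0.42, adjusted p = 0.0405).

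Of the T cell surface and co-stimulation genes, Cd5, an inhibitor of receptor signalling, passed. It read 5.21, 4.91 and 5.23 in high A against 4.45 to 4.84 in high B and C (0.52 ± 0.10, SE, adjusted p = 0.0445), all below the floor of 5.62. Cd2, an adhesion receptor gene, differed by 0.34 ± 0.08 (SE, adjusted p = 0.138) and Icos, a co-stimulatory receptor gene, by 0.40 ± 0.12 (SE, adjusted p = 0.278). Cd28 and Ctla4, its inhibitory counterpart, had log2 differences of 0.25 and 0.08, and neither passed. Within the receptor pathway, Ptpn22, a phosphatase that dampens LCK and ZAP70, read 6.78, 5.89 and 5.92 in high A, 5.01, 4.91 and 4.84 in high B and 4.49, 4.24 and 4.20 in high C. The 9 high mice thus fell in 3 separate steps by location, and the low mice, from 3.87 to 4.88, overlapped those of B and C. Ptpn22 was 3.00-fold higher in A than in B and C (1.58 ± 0.20, SE, adjusted p = 0.00259). It was also the 1 member called in location C, where it was lower than in A and B (-1.25, adjusted p = 0.0213, against 0.055% of genes called there). Cxcr6 was the 1 member called in location B, lower than the mean of A and C (-0.83, adjusted p = 0.037, against 0.264% of genes). Its location means were 5.87 in A, 4.28 in B and 4.35 in C, and the mice of B and C overlapped. Those contrasts share the high A mice. The call in B was lost without high A4, B2, B3, C1 or C2 or low A2, A3 or B3, and that in C without any 1 mouse of high B or C; each count was 3 without low B2, and that in C 2 without high A1 or A2. Zap70 had a log2 difference of -0.15 ± 0.13 (SE, adjusted p = 0.87), and its 2 other probe sets of -0.02 and -0.10.

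NK receptor genes did not pass in any location when all mice were used. Klrd1, the CD94 chain, read 5.83, 5.54 and 6.66 in high A and from 4.52 to 5.20 in high B and C, a difference of 1.06 ± 0.28 (SE, adjusted p = 0.185). Without low B2, which enters only the shared spread, Klrd1 and Cd2 were called in A (adjusted p = 0.0483 for both). Klrk1, the activating receptor NKG2D, differed by 0.49 ± 0.22 (SE, adjusted p = 0.605). Ncr1, the most NK-restricted receptor of the list, differed by only 0.05 ± 0.13 (SE, adjusted p = 0.976). Of the transcription factors, Tbx21 differed by 0.44 ± 0.14 (SE, adjusted p = 0.33) and Eomes by 0.07 ± 0.10 (SE, adjusted p = 0.944), both near the floor. A gene that misses the threshold near the floor is not shown to be unchanged.

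**Figure D2:**
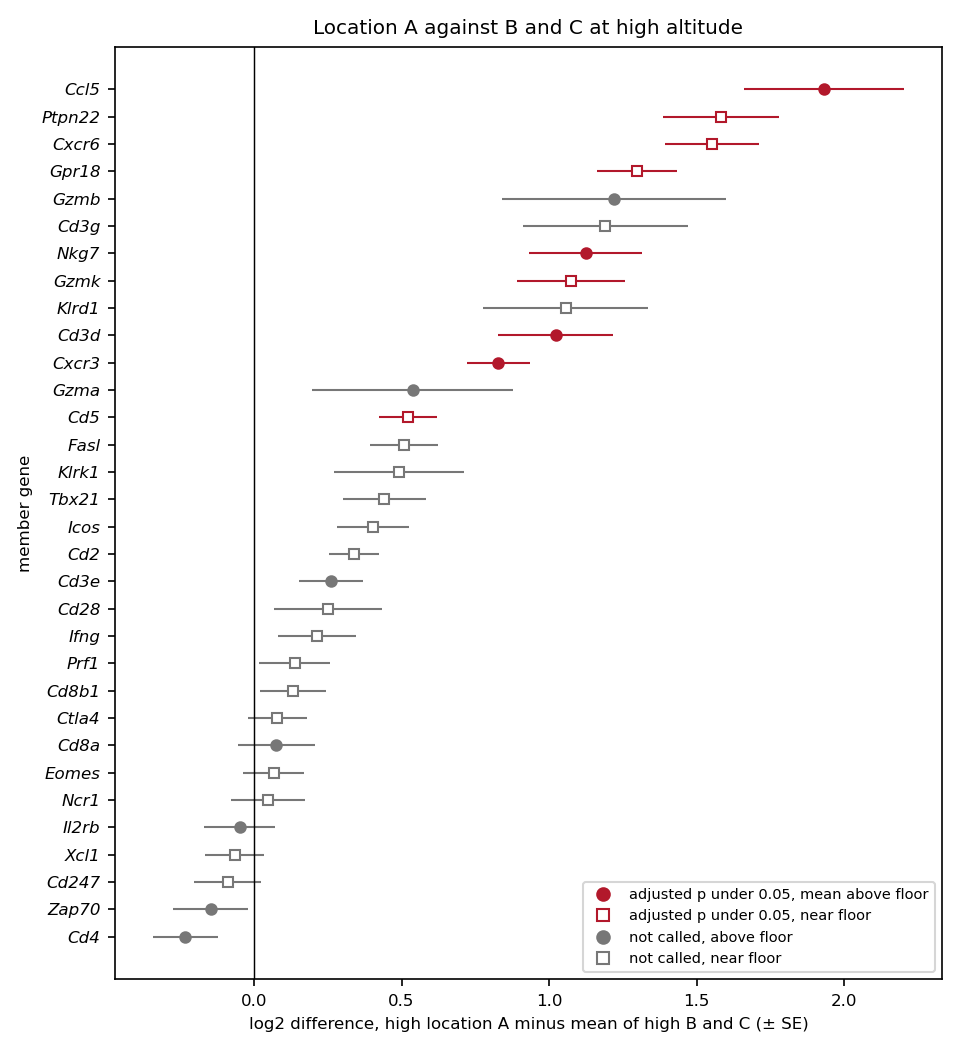
Log2 difference between high altitude location A and the mean of locations B and C (x axis, ± SE) for each of the 32 measured members (y axis), with filled circles for members whose mean lies above the floor and open squares for those near it, and red for adjusted p under 0.05. The differences run from -0.23 for Cd4 to 1.93 for Ccl5, and the 9 called members are all positive.

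Pan-leukocyte and macrophage genes also had positive differences in location A, with medians above the 0.42 of the members, most of them not past the test. More of them lay above the floor, 20 of 22 pan-leukocyte and 18 of 18 macrophage genes, against 11 of 32 members. All 22 pan-leukocyte genes, among them Ptprc, the CD45 gene, and Limd2, had positive differences in A (median 0.73), with 1.19 ± 0.34 and 1.54 ± 0.45 (SE) for those 2 and 0.14 for Lcp1, and 0 of 22 were called. The mean level of this list was 7.57 to 8.09 in the 3 mice of A and 6.75 to 7.45 in the 6 mice of B and C. All 18 Kupffer cell and macrophage genes were positive as well (median 0.60), and 1 was called, Fcna, a lectin gene of macrophages, at 1.84 ± 0.24 (SE, adjusted p = 0.00259). Their mean level was 9.50 to 9.98 in A and 8.73 to 9.68 in B and C. B and plasma cell genes were positive for 12 of 17 (median 0.13, mean level 5.60 to 5.66 against 5.30 to 5.71). Neutrophil, dendritic cell, hepatocyte, and endothelial and stellate genes had medians of -0.0006, -0.01, -0.03 and 0.08 in A, and erythroid genes of -0.09, with 0 genes called in each list. Among hepatocyte genes 3 of 11 were positive, with mean levels of 12.82 to 12.97 in A and 12.90 to 13.11 in B and C. The list means of neutrophil genes were 5.78 to 6.06 in A and 5.81 to 6.02 in B and C. The part of these other cell types in the result was not tested.

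**Figure D3:**
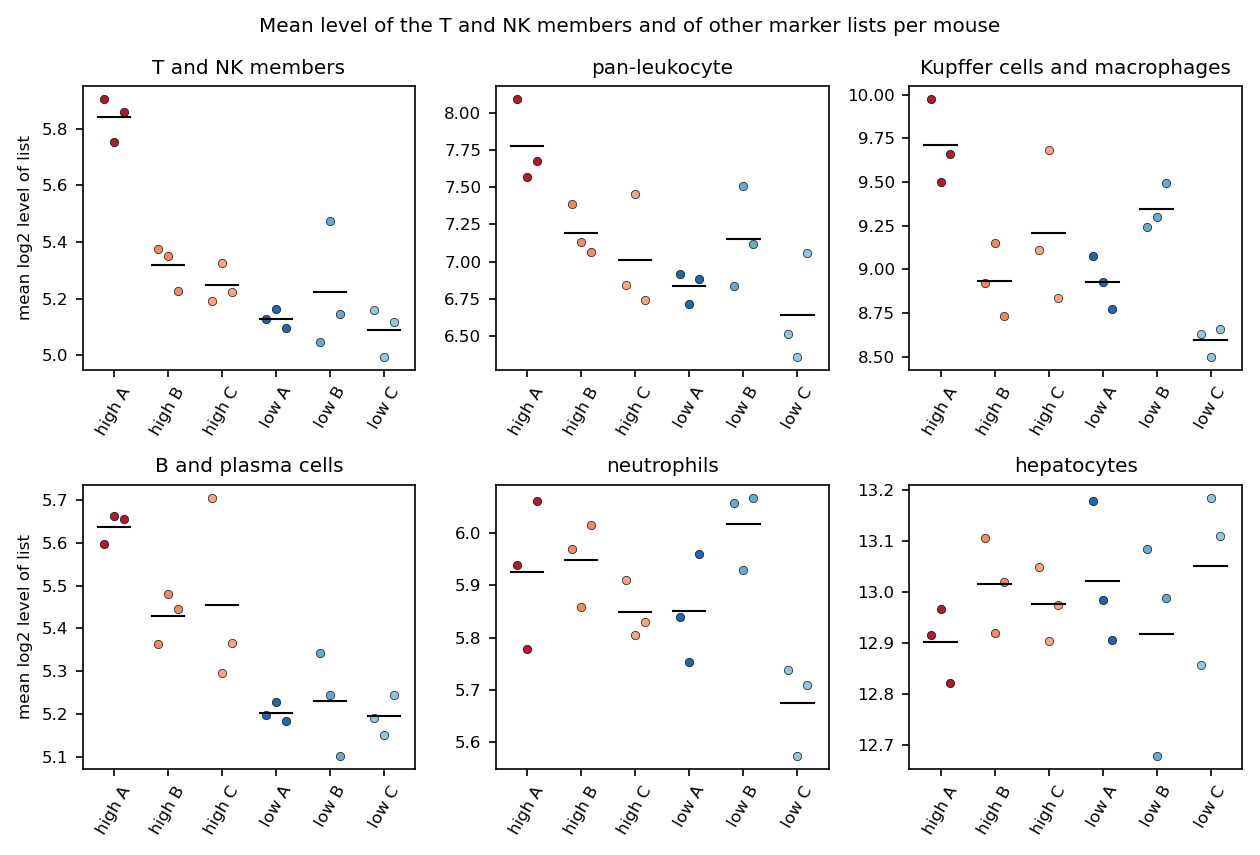
Mean log2 level per mouse (y axis) of the 32 T and NK members and of 5 other marker lists, by location (x axis; 3 mice each as points, black line the location mean). The T and NK members lie between 5.75 and 5.90 in high A and between 4.99 and 5.48 in the other mice; pan-leukocyte genes are also highest in high A, while hepatocyte genes are not.

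Further genes of T and NK cells, from lists that held no member, moved less. Of 40 measured genes of the T cell receptor pathway and T cell identity, Cd7, a T and NK surface glycoprotein, was called higher in A (0.77 ± 0.10, SE, adjusted p = 0.00259). The list had 26 positive differences and a median of 0.12, and its 3 brightest genes, S1pr1, Plcg1 and Gimap4, differed by 0.18, -0.09 and 0.66 without passing. Of 39 further NK and granule genes 0 were called in A, 26 were positive and the median was 0.07; the brightest, Lamp1, Ctsc and Id2, differed by 0.09, 0.70 and 0.42. Of 29 ligands and receptors of the members 0 were called and 24 were positive (median 0.07). Among these, B2m, H2-D1 and H2-K1, which encode the class I molecules that CD8 and many KLR receptors bind, differed by 0.16 ± 0.07, 0.91 ± 0.83 and 0.79 ± 0.45 (SE). Partners of the called members were looked at after those calls were known. Cxcl9, Cxcl10 and Cxcl11, the chemokines of CXCR3, differed by 1.38 ± 0.79, 0.32 ± 0.47 and 0.11 ± 0.23, Cxcl16, the ligand of CXCR6, by 0.15 ± 0.14, and the CCL5 receptor genes Ccr1 and Ccr3 by -0.05 ± 0.13 and 0.03 ± 0.11 (SE), none past the test.

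The comparison of altitudes asked whether T and NK genes differed between high and low altitude mice as groups. None of the 32 members passed the limma fit, in which location was a random block; the adjusted p ran from 0.11 for Ccl5 to 0.988 for Xcl1, against 0.363% of all genes called. At an unadjusted p under 0.05 there were 16 members, each higher at high altitude, and 2087 of all genes. Differences were positive for 27 members and negative for 5, with a median of 0.20, against 51.6% positive and a median of 0.00 over all genes. Markers of some other cells moved in the same comparison. All 22 pan-leukocyte genes were positive with 0 called (median 0.44, list mean per mouse 6.75 to 8.09 at high and 6.36 to 7.51 at low altitude), as were 16 of 18 Kupffer cell genes (median 0.30, 8.73 to 9.98 against 8.50 to 9.49) and 13 of 17 B and plasma cell genes (median 0.08, 5.30 to 5.71 against 5.10 to 5.34). Called higher at high altitude were Cd14, a macrophage receptor gene (1.09 ± 0.22, adjusted p = 0.0292), the antibody genes Jchain and Ighm (2.34 ± 0.34 and 2.05 ± 0.33, adjusted p = 0.00291 and 0.00763), and of the further NK and granule genes Ctsc, which encodes a granzyme-activating protease (1.27 ± 0.26, SE, adjusted p = 0.0347). Dendritic cell and neutrophil genes were positive for 9 of 11 and 8 of 11 (medians 0.11 and 0.05). Hepatocyte, erythroid, and endothelial and stellate genes were positive for 5 of 11, 2 of 8 and 7 of 14 (medians -8.8e-05, -0.05 and -0.004). In each of these lists 0 genes were called. The part of all these genes in the members' differences was not tested. Ccl5 ran from 7.07 through a median of 8.23 to 10.12 at high altitude and from 6.66 through 7.23 to 7.93 at low altitude, a 2.40-fold difference in means with overlapping groups. The 95% interval of its log2 difference was 0.56 to 1.98 in the mouse-level fit, 0.11 to 2.42 by limma with 1 mean per location, and -0.58 to 3.11 from the spread of Ccl5's own 6 location means. Its own correlation within locations was 0.765. In the mouse-level fit Ptpn22 differed by 0.89 ± 0.28, Cxcr6 by 0.84 ± 0.26, Gzmb by 0.78 ± 0.32, Nkg7 by 0.69 ± 0.21 and Gpr18 by 0.68 ± 0.21 (SE, adjusted p = 0.16 to 0.324). With 1 mean per location their SEs were larger, at 0.42, 0.39, 0.36, 0.30 and 0.32 in that order. From the spread of each gene's own location means every one of their 95% intervals held 0, with -0.68 to 2.45 for Ptpn22. Cd3d, Gzmk, Cxcr3 and Cd5 differed by 0.57, 0.60, 0.52 and 0.34. At the other end, Zap70, Cd8a and Gzma differed by 0.03, -0.07 and -0.08, Cd3e by 0.14, Cd4 by 0.11 and Il2rb by 0.11. Among the 16 remaining members near the floor the differences ran from -0.06 to 0.67, and the largest were those of Cd3g at 0.67, Fasl at 0.42, Tbx21 at 0.39 and Klrd1 at 0.34.

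The altitude comparison was repeated without the 3 mice of high A. For the members called in A, which had to lose by this since they were picked for being high there, and for Gzmb, the log2 difference without A was 0.62 for Ccl5, 0.36 for Ptpn22, 0.32 for Cxcr6 and for Nkg7, 0.37 for Gzmb, 0.25 for Gpr18 and for Cxcr3, 0.24 for Gzmk, 0.23 for Cd3d and 0.17 for Cd5, with adjusted p from 0.238 to 0.713. For Klrd1 it went from 0.34 to -0.01. It was larger without A for Cd4 (0.19), Il2rb (0.13), Zap70 (0.08) and, downwards, Gzma (-0.26), and smaller for Cd3e (0.06). Cd4, Il2rb and Zap70 had to gain by this, since they were lower in A than in B and C. Among the 11 members above the floor the median went from 0.14, the value of Cd3e, to 0.19, that of Cd4. The median over the 32 members became 0.12 with 26 positive, 0 were called against 0.187% of all genes, and the median over all genes was 0.01. For no member did the 9 high mice lie apart from the 9 low mice, against 0.066% of all genes. For 10 members (Cd3g, Cd8b1, Cd2, Cd5, Ccl5, Il2rb, Cxcr3, Cxcr6, Gpr18 and Tbx21) the 3 high location means all lay above the 3 low ones, against 7.55% of all genes. The location block did little here, since 1 correlation of 0.00586 was shared by all genes, while the median of the members' own correlations was 0.372 (all genes -0.0021). With 1 mean per location, 0 members were called and the adjusted p of the 16 members above the floor or called in A ran from 0.525 to 0.959. Without the 3 mice of high C, Ccl5, Ptpn22 and Tbx21, the T-bet gene, passed (1.73, 1.30 and 0.50, adjusted p = 0.0246, 0.0271 and 0.0345 by limma), and without high C3 alone Ccl5 and Tbx21 did (1.44 and 0.45, adjusted p = 0.0489 for both). These fits called 0.434% and 0.462% of all genes. With the Actb RNA integrity difference as a covariate, Cd5 and Cxcr3 passed (0.43 and 0.66, adjusted p = 0.0466 and 0.0362 by limma). That fit called 0.517% of all genes, and the comparisons between locations were not repeated with this covariate.

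**Figure D4:**
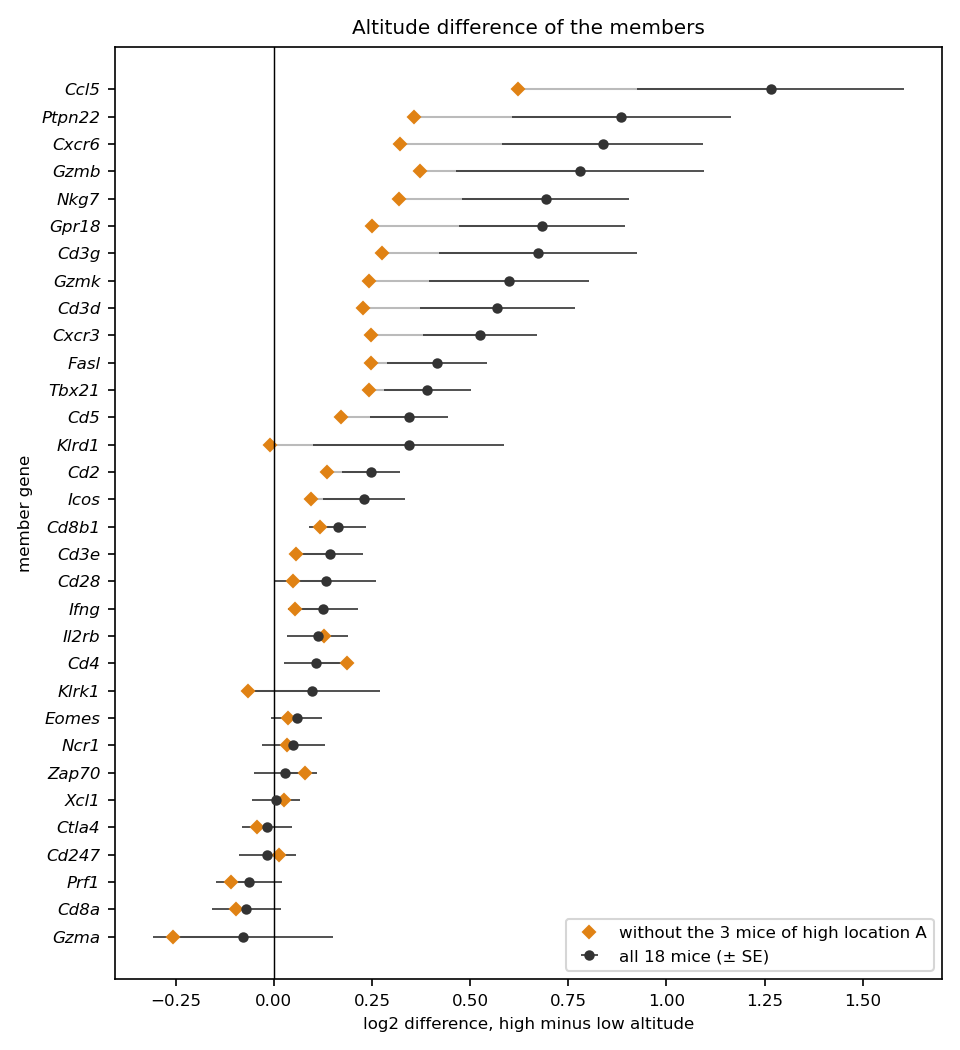
Log2 difference between high and low altitude (x axis) for each of the 32 measured members (y axis), over all 18 mice (black circles, ± SE) and without the 3 mice of high location A (orange diamonds). The difference of Ccl5 goes from 1.27 to 0.62, and most diamonds lie nearer 0 than the circles.

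At low altitude no member was called between the 3 locations. Limma's F test called 0 of 32 members, against 0.0715% of all genes, with an unadjusted p under 0.05 for 1 member, Fasl, and for 1215 of all genes. None was called in low A, B or C against the other 2, where 0.055%, 0.0165% and 0% of genes were called; at an unadjusted p under 0.05 limma gave 1, 1 and 2 members, and 1341, 1044 and 1070 of all genes. Fasl read 3.69, 3.85 and 3.69 in low A, below the other 6 low mice at 3.99 to 4.33, a log2 difference of -0.47 ± 0.11 (SE, adjusted p = 0.231). With array weights it was called in low A (-0.49, adjusted p = 0.0404). All 9 values lie near the floor. One mouse stood out instead. Low B2 was the highest of the 9 low mice for 17 of 32 members, against 19.3% of all genes. It read 7.39 for Gzmb, where the other low mice ran from 5.01 to 6.04 and high A from 6.95 to 7.46. It also read 7.39 for Gzma, the highest of all 18 mice, and 5.89 for Klrd1, 6.33 for Nkg7 and 7.93 for Ccl5, the top of the low range in each. Its Gpr18 and Cxcr6 levels, 4.76 and 4.33, were the highest of the low mice too, but lay below every mouse of high A. Low B2 had the highest mean level of the low mice for pan-leukocyte genes (7.51) and dendritic cell genes (6.52). It had the lowest for hepatocyte genes (12.68) and erythroid genes (5.47). For endothelial and stellate genes low B2 and low A1 both read 7.63. Low B2 was not the highest for Kupffer cell genes (9.30, with low B3 at 9.49), neutrophil genes or B and plasma cell genes. The part of these cell types in the levels of low B2 was not tested. Without low B2 the altitude difference of Gzmb went from 0.78 to 1.00 and that of Gzma from -0.08 to 0.07, neither past the test (adjusted p = 0.101 and 0.932).

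**Figure D5:**
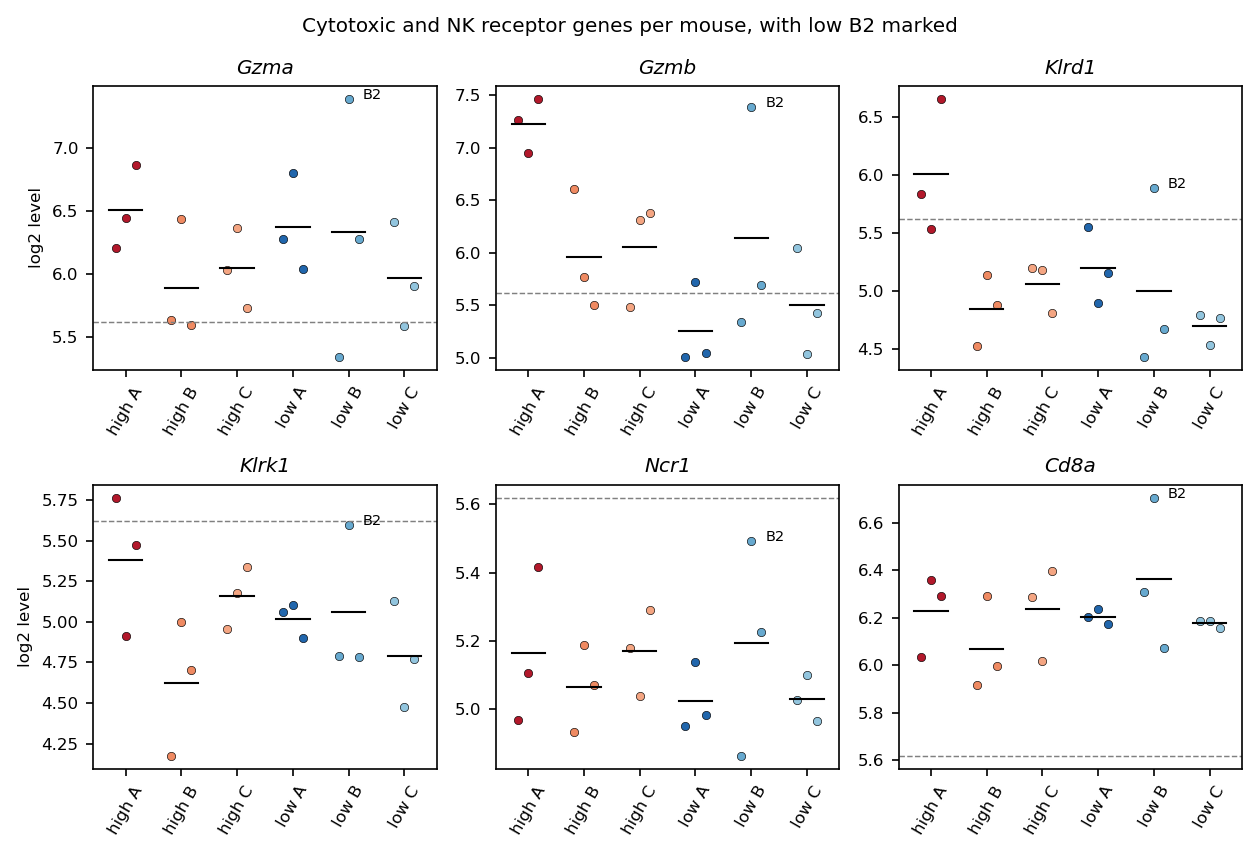
Log2 level of 6 cytotoxic and T or NK receptor members, chosen after their values were seen, by location (x axis; 3 mice each as points, black line the location mean), with low B2 marked and the floor of 5.62 dashed. Low B2 is the highest low altitude mouse in each panel, at 7.39 for both Gzma and Gzmb.

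Other probe sets and shared variation were looked at last. There were 18 other probe sets for 11 members, 3 of them above the floor; 12 were higher in high A and 16 at high altitude. Of the 9 members called in A only Cxcr6 had another, which was higher in A by 0.69 ± 0.16 (SE) without passing over all probe sets (adjusted p = 0.141). For the other 8 the result rests on 1 probe set each. Once each location's mean was removed, Ccl5 varied over the 18 mice most like the non-members Il10rb, Irf8, Zfp655, Nos1ap, Niban1 and Fermt3, with Pearson correlations from 0.83 to 0.87, and among members most like Gzma (0.78), Gzmb (0.65) and Gpr18 (0.62). Nkg7 varied most like Cd52, Plek, Psme1, Aif1, Gbp2 and Heatr6 (0.87 to 0.93), and among members most like Cd3d (0.79), Cd3g (0.76) and Cd2 (0.73). The non-members were the 6 highest among genes above the floor, the members were taken from the whole list, and these correlations were not tested.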

How the data were processed

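Total RNA of 18 livers was labelled as biotinylated cRNA, per the labels' protocols. The deposited log2 values of 45101 probe sets were made by the authors with RMA in the R package affy, per the submitters' processing notes, which name no version. RMA quantile normalizes arrays, so levels compare within a probe set. Gene names came from GEO's platform annotation: 34945 probe sets had 1 gene, 932 several.

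The members and gene lists were chosen with earlier results of these data known. Limma 3.58.1 in R 4.3.3 fitted all 18193 genes, altitude with location as a random block, and the 6 location means with 1 shared spread, each with limma's intensity trend; tests were two-sided and p-values were adjusted after Benjamini and Hochberg, with a threshold of 0.05. Mice of 1 location enter as replicates. The fits were tested on simulated data with independent noise for each mouse. That simulation could not test the altitude fit under the correlation within locations that the members show. Values are given for members above the floor or called, and for the 4 largest altitude differences among the rest; of the T cell, NK, ligand and pan-leukocyte lists, for called genes and the 3 brightest, and of the other lists mainly as counts. Promoter motifs were not analysed here. Alternatives covered the gene rule, floor, normalization, trend, weights, blocks, RNA integrity, threshold and left-out mice and locations. Those of blocks and RNA integrity were fitted for altitude only, so the calls in location A were not refitted with the Actb difference. Tables and figures were made with Python 3.11.15, pandas 2.3.3 and matplotlib 3.10.9.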

Additional observations from a re-analysis of the deposited data

Results flagged for a closer look

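In the 9 mice of an altitude, a single mouse stood apart from the rest for 6 of 64 combinations of member and altitude, where chance gives about 1 in 20. Low B2 was the highest low mouse for Gzmb, at 7.39 with the next at 6.04, and for Cd8a, at 6.71 with the next at 6.31. High A1 was the highest high mouse for Cd3g, at 6.85 with the next at 5.30. Near the floor, Prf1 was lowest in high C1, at 4.57, and Xcl1 highest in high B2, at 4.20. Cd3e was lowest among the low mice in low B3, at 6.72 with the next at 7.04.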

How the results depend on the processing

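Called members of location A are few, 21 of the 32 members lay near the floor, where signal over background limits what can be seen, and 3 mice per location limit the rest. The altitude median of the members stayed positive in all alternatives, at 0.12 to 0.30 without single mice or locations. The cause of the changes below was not tested.

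At altitude, 101 genes were called with every probe set tested, 135 with array weights, 0 with 1 mean per location, 180 at a threshold of 0.10, and 19 to 100 without single mice or locations; members numbered 2 with the Actb covariate and 0 to 3 in those leave-outs. Of 8 same-numbered pairs of mice, those of A2, B2 and C2 correlated at 0.266, 0.408 and 0.222, and the other 5 from -0.0689 to 0.0286. Whether mouse number stands for shared handling was not tested. With mouse number as replicate block, limma called 28 genes and 0 members (lowest adjusted p = 0.199), against 66 genes in the main fit. High A4 had no same-numbered mouse, so that fit gave it a term of its own. It thus did not enter the altitude difference there. Differences near 0 changed sign: Cd8a read 0.27 with the mean of all probe sets, Gzma 0.021 with array weights and 0.0094 with the Actb covariate, where Zap70 read -8.9e-05. In leave-outs Gzma ran from -0.26 to 0.069 and Zap70 from -0.015 to 0.079, and in location A Il2rb from -0.16 to 0.088 and Cd8a from -0.0070 to 0.17.

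Between high locations 281 genes were called with array weights, 108 at 0.10 and 14 to 70 in leave-outs; members numbered 3 among genes above the floor only, and 0 to 7 in leave-outs, with 0 without location A. Between low locations 24 genes were called with every probe set tested, 8 above the floor only, 50 with array weights and 1 to 17 in leave-outs. In high A, 3 members and 17 genes were called above the floor only (near-floor genes were not tested, and Cd3d lost its call), 92 genes with array weights, 84 at 0.10, and 5 to 11 members and 14 to 60 genes in leave-outs. In high B, members numbered 0 with the mean of probe sets, 0 above the floor only, 2 after a further quantile normalization, 3 with array weights, 3 at 0.10 and 0 to 5 in leave-outs. In high C they numbered 0 above the floor only and 0 to 6 in leave-outs, and in low A 1 with array weights.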
